A study of Drosophila melanogaster with 8 samples.

Results

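The 9 genes described here encode enzymes of glycolysis and of the branch that leaves it for glycerol-3-phosphate: Pgi, Pfk, Ald1, Tpi, Gapdh1, Pgk, Pglym78, Eno and Gpdh1. They were chosen by name from the platform annotation of the array, and each gene was represented by the probe set (a group of array features that report on the same transcript) with the highest mean. All 9 were present among 11982 genes with a probe set of their own, and they were covered by 13 probe sets in all. Glycolysis splits glucose into pyruvate in the cytosol and yields ATP and NADH. In insects the cytosolic NADH is largely reoxidised through glycerol-3-phosphate, which a mitochondrial enzyme turns back, a shuttle that flight muscle in particular relies on. Neurons and photoreceptors, which fill much of the head, consume sugar at a high rate, and glia pass on products of glycolysis to them.

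To find out whether day length acts on these transcripts, heads of Canton-S females, a standard wild-type laboratory strain of Drosophila melanogaster, were compared between 2 photoperiods. Long day flies were kept under 16 h of light and 8 h of darkness, short day flies under 10 h of light and 14 h of darkness, and both for 12 days at 12.5 °C from shortly after eclosion until they were collected, 4 h after the lights came on. A shorter short photoperiod is given in the methods of the study, and the labels are followed here. Each photoperiod had 4 samples on separate Affymetrix Drosophila Genome 2.0 arrays, and as the labels do not say whether these came from separate vials, the p-values measure the spread between samples, which may be technical. Array medians (log2, 9107 probe sets with a mean of at least 4) ran from 8.44 to 8.52.

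The head tissue was recognisable in every sample, with 9 measured photoreceptor genes and 15 neuronal genes all above a mean of 4. The sample of short day replicate 3 stood apart from the others. It held transcripts of the flight and jump muscles, which lie in the thorax: fln (flightin) was at 11.71 there and between 2.58 and 2.69 in the other 7 samples, and the actin of flight muscle, Act88F, reached 13.10 against 7.84 to 8.93 elsewhere. The results below are therefore given with and without this sample where it matters. A whole head is a mixture of tissues, and in such bulk samples fewer cells of a type and less RNA per cell cannot be told apart.

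Transcripts of the glycolytic enzymes were nearly level between the photoperiods, with a small upward lean in short days. Only Gapdh1 was differentially expressed at the study's threshold of an unadjusted p under 0.01, by 1.09-fold. The mean was higher in short days for all 9 genes, although for Gpdh1 and Pglym78 the difference was 0.00 and 0.02 on the log2 scale and passed to the other side of 0 when the arrays were centred on their medians (-0.02 and -0.0048); that of Gpdh1 did so after a second quantile normalization too. The median log2 difference of the 9 was 0.09. For all 11982 genes it was 0.00, for the 7349 that reached a mean of 4 it was 0.02, and for the 1819 that reached 10 it was 0.04. A higher mean in short days was found in 7492 of the 11982 genes and in 1120 of the 1819, so that most genes leaned the same way. Across all genes 1.79% were called higher in short days and 3.48% were called in either direction, and among genes of mean 10 or more, to which 8 of the 9 belong, 8.47% were called, so that 1 call among 9 genes is close to the background. No gene of the 9 passed 0.05 after Benjamini-Hochberg adjustment over the 18769 probe sets tested with limma, and the smallest adjusted p was 0.281, that of Gapdh1. With probe sets of mean under 4 or under 6 left out the smallest adjusted p of the 9 was 0.193 and 0.178, that of Pfk.

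**Figure D1:**
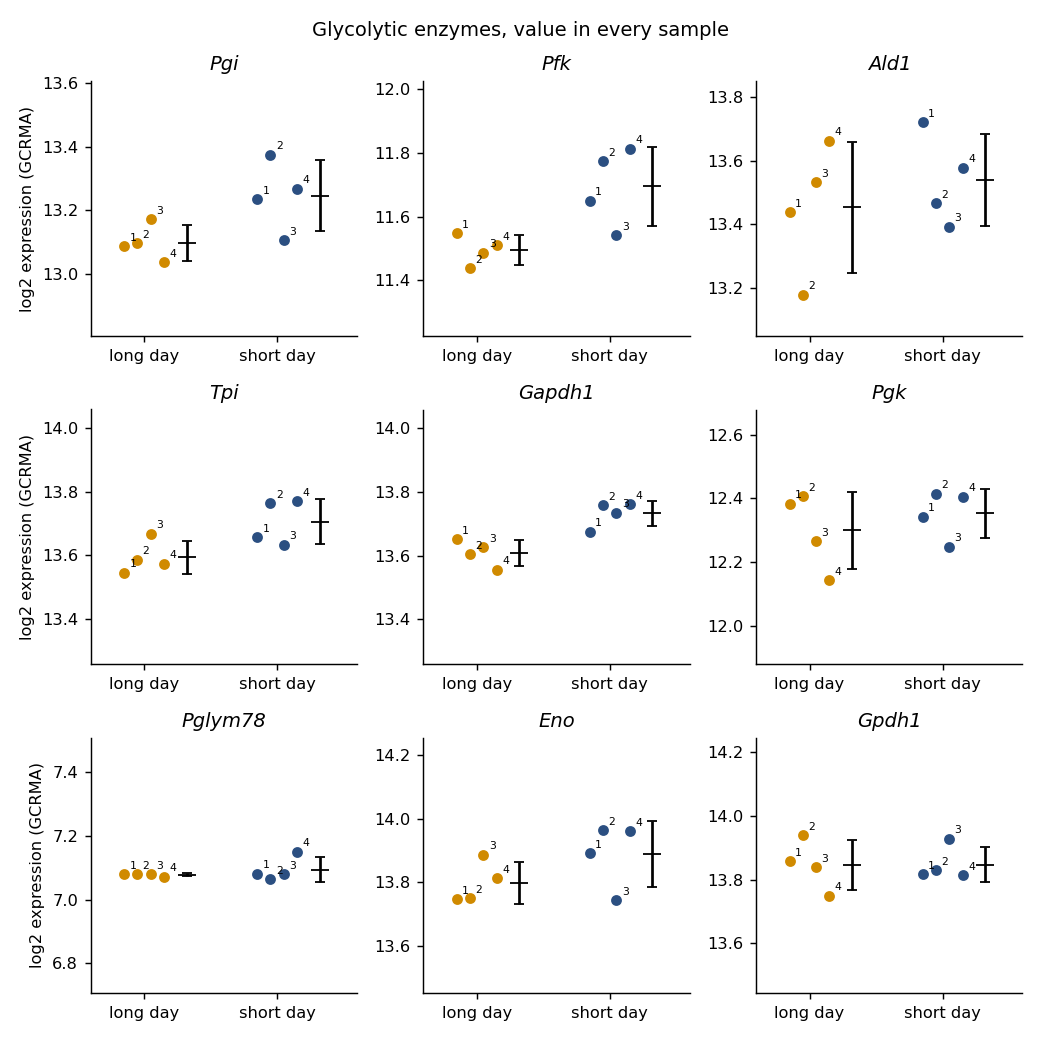
The log2 expression (GCRMA) of each of the 9 genes in every sample, with long day on the left and short day on the right of each panel. Numbers beside the points are replicate numbers, bars show mean ± SD of 4 samples, and every panel spans 0.8 on the log2 scale. The 4 short day points of Gapdh1 lie above its 4 long day points, and in the other 8 panels the groups overlap.

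The first steps of the pathway prepare glucose for cleavage. Pgi, glucose-6-phosphate isomerase, was at 13.09, 13.10, 13.17 and 13.04 in long day replicates 1 to 4 and at 13.24, 13.38, 13.11 and 13.27 in short day replicates 1 to 4. The groups overlapped because short day replicate 3 lay within the long day range. The log2 difference of 0.15 (95% interval 0.00 to 0.29) was not called (limma adjusted p = 0.558). Pfk, phosphofructokinase, which catalyses the committed and most tightly regulated step, gave 11.55, 11.44, 11.49 and 11.51 in long days and 11.65, 11.77, 11.54 and 11.81 in short days. Its difference, the largest of the 9 at 0.20 (95% interval 0.04 to 0.35, limma adjusted p = 0.431), was not called, and again only short day replicate 3 fell into the long day range. Both genes thus had 3 of 4 short day samples above every long day sample.

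Aldolase and triosephosphate isomerase form and interconvert the triose phosphates. Ald1 was the most variable of the 9, at 13.44, 13.18, 13.53 and 13.66 in long days and 13.72, 13.47, 13.39 and 13.58 in short days. Its groups overlapped almost fully, with a difference of 0.09 and a wide 95% interval of -0.21 to 0.38. Tpi was at 13.55, 13.59, 13.67 and 13.57 in long days and at 13.66, 13.76, 13.63 and 13.77 in short days. Its difference of 0.11 (95% interval 0.01 to 0.22) was not called (limma adjusted p = 0.519), and long day replicate 3 reached the level of short day replicates 1 and 3.

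Gapdh1, glyceraldehyde-3-phosphate dehydrogenase, carries out the step that produces NADH. It was at 13.65, 13.61, 13.63 and 13.56 in long days and at 13.68, 13.76, 13.74 and 13.76 in short days. It was the only gene of the 9 whose groups did not overlap, as was seen in 7.34% of all genes and 15.7% of those of mean 10 or more. The values rose from 13.61 ± 0.04 to 13.73 ± 0.04 (mean ± SD, 4 samples each), a log2 difference of 0.12 with a 95% interval of 0.06 to 0.19 (limma adjusted p = 0.281). The nearest values of the groups were those of replicate 1, at 13.65 and 13.68. The call was lost without long day replicate 2 (difference 0.12) or without short day replicate 2 (0.11), 3 (0.12) or 4 (0.11), and the difference stayed between 0.11 and 0.14 with each of the 8 samples left out.

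The array also carries quality control probe sets named after GAPDH, which were set aside from the fit. The 3 of the first series (AFFX-Dros-GAPDH), at the 3′ end, the middle and the 5′ end, were higher in short days by 0.16, 0.10 and 0.14 on the log2 scale. Their groups did not overlap at the 5′ end (exact permutation test, two-sided, p = 0.0286, the smallest that 4 against 4 samples can give) and overlapped at the 3′ end (exact p = 0.0571) and in the middle (exact p = 0.114). None of them passed when adjusted over all 23 control comparisons (adjusted exact p = 0.164 for the smallest). The 5′ set missed an unadjusted exact 0.05 without any single long day sample (exact p = 0.0571, differences between 0.13 and 0.15). Its groups still did not overlap then, so with groups of unequal size this miss does not show a weaker separation. The 4 of the second series (AFFX-r2-Dros-GAPDH) did not rise, with differences of 0.00, -0.12, -0.08 and -0.08 and exact p between 0.286 and 0.971. Control probe sets that bear the same name thus gave different answers.

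The last steps of the 9 release ATP and lead towards pyruvate. Pgk, phosphoglycerate kinase, was at 12.38, 12.41, 12.27 and 12.14 in long days and at 12.34, 12.41, 12.25 and 12.41 in short days. The groups overlapped fully (log2 difference 0.05, 95% interval -0.11 to 0.22). Eno, enolase, was at 13.75, 13.75, 13.89 and 13.81 in long days and at 13.89, 13.96, 13.74 and 13.96 in short days, a difference of 0.09 (95% interval -0.05 to 0.23) with short day replicate 3 the lowest of all 8 samples.

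The probe set of Pglym78, phosphoglycerate mutase, hardly varied. It read 7.08, 7.08, 7.08 and 7.07 in long days and 7.08, 7.06, 7.08 and 7.15 in short days, a range of 0.09. Of 2119 genes with a mean between 6 and 8 only 0.566% had a range as small or smaller, against a median range of 0.44. Before rounding, 4 of the 8 samples (long day replicates 1 to 3 and short day replicate 3) held the identical value, a repetition also seen in probe sets at the lowest value of the array. The difference of 0.02 is therefore not read as a measure of the transcript.

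Gpdh1, cytosolic glycerol-3-phosphate dehydrogenase, opens the shuttle described above and supplies glycerol-3-phosphate for making lipids. Its representative probe set was at 13.86, 13.94, 13.84 and 13.75 in long days and at 13.82, 13.83, 13.93 and 13.81 in short days. The means were equal to the second decimal, at 13.85 ± 0.08 and 13.85 ± 0.05, and the 95% interval of the difference ran from -0.11 to 0.11. Short day replicate 3, the sample with flight muscle transcripts, was the highest of the short day samples. The highest of all was long day replicate 2, where fln was at 2.69.

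The other probe sets of Gpdh1 did not follow the representative set. Gpdh1 is known to produce several protein forms through alternative use of its last exons, and 4 probe sets on the array were annotated to it alone. Probe set 1634893_at was at 12.96, 12.85, 12.95 and 12.88 in long days and at 13.14, 13.13, 13.14 and 13.04 in short days. All short day values lay above all long day values, with a rise of 0.20 on the log2 scale or 1.15-fold (95% interval 0.11 to 0.29, limma adjusted p = 0.193). Probe set 1636311_at was at 12.01, 12.39, 12.11 and 12.22 in long days and at 11.66, 11.44, 11.92 and 11.60 in short days. Here all short day values lay below all long day values, and the difference was -0.53, a ratio of 0.695 (limma adjusted p = 0.301). Probe set 1625949_at, the dimmest of the 4, was at 11.70, 11.92, 11.64 and 11.40 in long days and at 11.51, 11.56, 11.83 and 11.46 in short days, and its groups overlapped (difference -0.08, 95% interval -0.39 to 0.24).

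Thus 2 of the 4 probe sets of Gpdh1 were called, in opposite directions, where 2.76% of all probe sets were called and 5.85% had groups that did not overlap. All 4 sets had a mean above 10, and among genes of mean 10 or more 8.47% were called and 15.7% did not overlap. Neither set passed adjustment over all probe sets (with the filter at a mean of 6 the adjusted p of 1636311_at was 0.051). To describe how far the probe sets diverged, the difference between 2 sets of the same gene was taken in each sample for all 7 pairs that Gpdh1 and Ald1 allow. The contrast of 1634893_at with 1636311_at shifted by 0.73 on the log2 scale in short days, from between 0.46 and 0.95 in long days to between 1.22 and 1.69. This was the largest shift of the 7, and since both sets had already separated the photoperiods in opposite directions, it is given with no test. Against the remaining Gpdh1 sets, 1636311_at was lower in short days by 0.53 and 0.45 on the log2 scale.

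Each of these calls was examined without single samples. The rise of 1634893_at was called with each of the 8 samples left out, with differences between 0.18 and 0.23. The fall of 1636311_at ranged from -0.61 to -0.45 and missed the threshold without long day replicate 2 (-0.46), 3 (-0.55) or 4 (-0.51) and without short day replicate 1 (-0.53), 2 (-0.45) or 4 (-0.51). Without short day replicate 3 it was -0.61 (limma adjusted p = 0.228), and the rise of 1634893_at was 0.19 (limma adjusted p = 0.275). Both calls were thus present without the sample that held flight muscle transcripts.

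**Figure D2:**
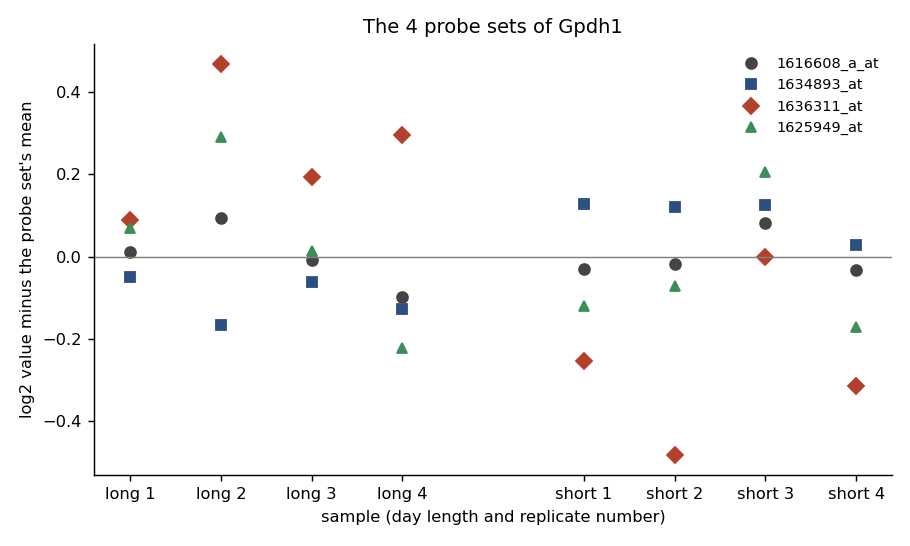
The 4 probe sets of Gpdh1 in each of the 8 samples (horizontal axis, replicate number within each photoperiod), as log2 value minus the mean of that probe set over all samples. The squares (1634893_at) are all higher and the diamonds (1636311_at) all lower in short days, while the circles and triangles overlap between the photoperiods and are highest of the short day samples in replicate 3.

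RNA integrity was followed through control probe sets at both ends of the same transcript, since probe sets at different distances from the 3′ end respond to it. The 3′ minus 5′ difference was between 2.07 and 2.45 in long days and between 2.35 and 2.53 in short days for Act5C (exact p = 0.0571, adjusted 0.219 over the 23 control comparisons). It was between 1.57 and 2.10 and between 1.92 and 2.22 for eIF-4a (exact p = 0.171), and between 0.98 and 1.04 and between 0.97 and 1.16 for GAPDH (exact p = 0.743). For ACTIN (exact p = 0.743) and the second GAPDH series (exact p = 0.114) it was 0.09 and 0.08 higher in short days, so that all 5 such differences had a higher mean there, with overlapping ranges. Both 5′ sets of Act5C were lower in short days without overlap, by -0.34 and -0.30 on the log2 scale (exact p = 0.0286, adjusted p = 0.164 over the 23 control comparisons). The 5′ sets of eIF-4a and of the second GAPDH series were also lower, by -0.22 and -0.08. Those of the first GAPDH series and of ACTIN were higher, by 0.14 (without overlap) and 0.20. The part of RNA integrity in the divergence of the Gpdh1 probe sets was not tested.

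With each probe set centred on its own mean, AFFX-r2-Dros-GAPDH-3_at differed from the Gpdh1 set 1625949_at by a mean of 0.03 per sample and from Gapdh1 by 0.16. In the same way AFFX-r2-Dros-GAPDH-3_a_at differed from the representative Gpdh1 set by 0.04 and from Gapdh1 by 0.08. All 4 sets of this series lay nearest to a Gpdh1 probe set, but Gpdh1 has 4 sets to be near to and Gapdh1 only 1. In the first series AFFX-Dros-GAPDH_5_at was equally near to the Gpdh1 set 1634893_at and to Gapdh1 (0.06 each). What these control sets match was not analysed here, so they are not counted as a measure of either gene.

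Ald1, the only other gene of the 9 with more than 1 probe set, showed a weaker split. The dimmer set, 1633473_s_at, was at 10.24, 10.43, 10.69 and 10.80 in long days and at 10.00, 9.88, 10.44 and 10.19 in short days. Short day replicate 3 reached into the long day range, and the difference of -0.42 was not called (limma adjusted p = 0.563). The contrast between both sets shifted by 0.50 (exact permutation test, two-sided, unadjusted p = 0.0571), and its groups overlapped. A different response of the Ald1 sets was therefore not established. When all probe sets of a gene were averaged, the differences of Gpdh1 and Ald1 became -0.10 and -0.16, neither of them called.

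**Figure D3:**
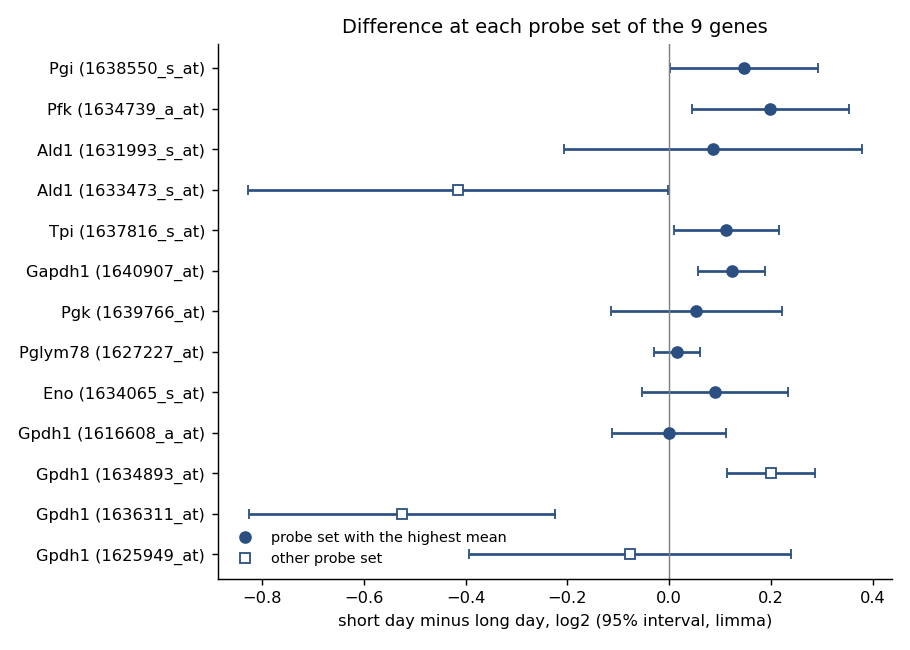
Short day minus long day difference on the log2 scale, with its 95% interval from limma, at all 13 probe sets of the 9 genes. Filled circles are the probe sets with the highest mean of their gene and open squares the other sets. The circles lie between 0.00 and 0.20, and the open squares of Gpdh1 and Ald1 reach from 0.20 down to -0.53.

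The 9 genes shared part of their course over the samples. With each gene centred on its own mean, their average was between -0.07 and -0.01 in the long day samples and at 0.04, 0.08 and 0.09 in short day replicates 1, 2 and 4. In short day replicate 3 it was -0.03, within the long day range. This sample was the lowest short day sample for Pgi, Pfk, Ald1, Tpi, Pgk and Eno but the highest for Gpdh1. Short day replicates 2 and 4 together held the highest value of 7 of the 9 genes. Short day replicate 2 also had the highest array median, at 8.52, the next being 8.46 in short day replicate 3.

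Leaving out short day replicate 3 changed which genes were called. Without it Pfk and Pgi were called, at 0.25 and 0.19, whereas Gapdh1 was not (0.12). The groups did not overlap for 4 genes, Pgi, Pfk, Gapdh1 and Eno, and the median difference of the 9 was 0.14. Of all genes 2.01% were then called higher, 3.81% were called in either direction, and in 12.9% the groups did not overlap. Shares among genes of mean 10 or more were not taken in that fit. With all 8 samples these were 8.47% called and 15.7% without overlap, above the shares of all genes. None of the 9 passed adjustment over all probe sets in that fit either, with adjusted p of 0.249 for Pfk and 0.322 for Pgi.

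Some lists of tissue markers also differed between the photoperiods. Of 17 measured sarcomere genes 8 were called, all higher in short days (Mlc1, Mlc2, Tm2, Prm, bt, Obsc, Zasp52 and sals), and the summed level of the 17 on the linear scale ranged from 74994 to 87261 in long days and from 93198 to 114022 in short days, without overlap. Of 15 neuronal genes 4 were called, all higher (Snap25, Shab, unc-13 and tau), and their summed level ranged from 35019 to 42227 and from 40860 to 47326. Of 9 fat body genes 6 were called, all lower (Lsp2, Yp1, Yp2, Yp3, AkhR and fit), with a summed level over the 8 of mean 4 or more from 169305 to 176724 in long days and from 111885 to 139000 in short days. No gene was called among 7 glial, 9 photoreceptor, 8 haemocyte and 6 flight and jump muscle genes. The summed level of the 9 glycolytic enzymes ranged from 80629 to 84471 in long days and from 83201 to 89456 in short days. On the centred log2 scale the 9 enzymes averaged -0.03 in short day replicate 3 and 0.09 in replicate 4. The neuronal list averaged -0.05 and 0.14 there, and the sarcomere list 0.25 and 0.05. Muscle and neurons both use glycolysis heavily, and the part of tissue composition in the glycolytic differences was not tested.

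**Figure D4:**
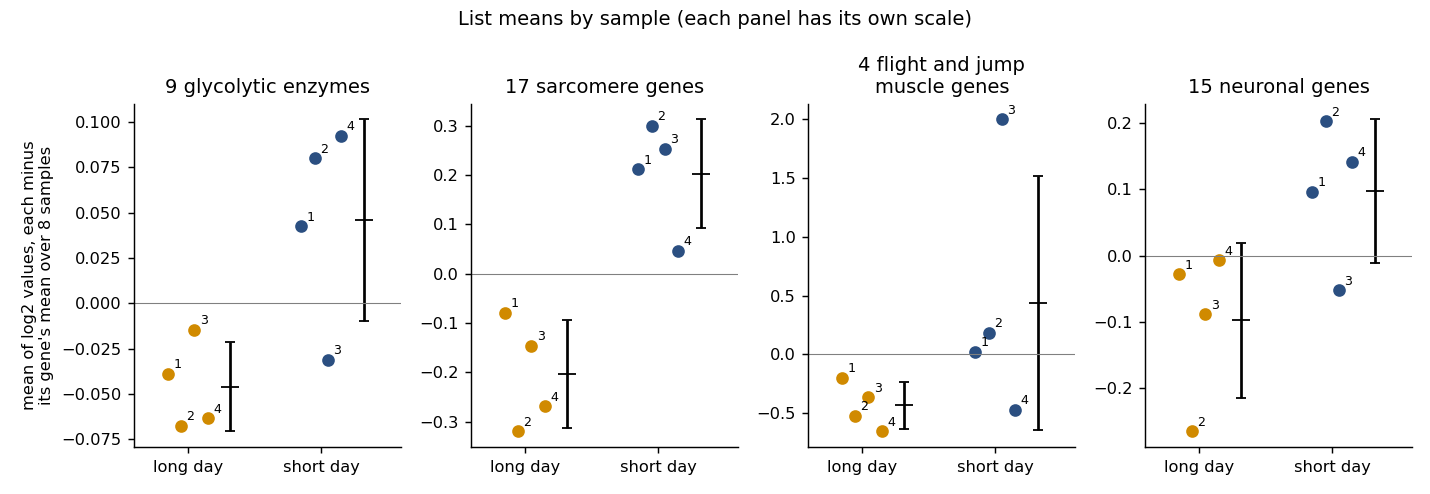
Mean of the log2 values of 4 gene lists in each sample, every gene minus its own mean over the 8 samples, with replicate numbers beside the points and mean ± SD of 4 samples as bars. Each panel has its own scale. In short day replicate 3 the glycolytic enzymes (-0.03) and the neuronal genes (-0.05) are lowest among short days, while the flight and jump muscle genes are far above all other samples.

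The genes around the 9 were examined by the reactions they serve, taking their lists as a description. Hexokinase, which feeds glucose into the pathway, was represented by Hex-A and Hex-C. Hex-A was at 11.29 ± 0.24 in long days and 11.57 ± 0.14 in short days and was not called (difference 0.28, limma adjusted p = 0.632). Hex-C fell from 11.84 ± 0.10 to 11.23 ± 0.31, a ratio of 0.656 (limma adjusted p = 0.336), and its call was lost without any single long day sample or without short day replicate 1 or 4 (differences between -0.66 and -0.58). Of the 12 measured genes of this list 1 fell and none rose. Only 3 of the 12 had a mean of 4 or more, the third being CG7059, which was not called (difference 0.09). PyK and Gapdh2 had no probe set of their own in the annotation used here.

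Enzymes that draw on pyruvate or NADH were covered in part, since Ldh, Gpo1, Pdha, Pdhb and Mdh2 had no probe set of their own. Of the 13 measured genes 10 had a mean of 4 or more. The measured genes were mostly level, with 1 of the 13 called. That gene was muc, a subunit of pyruvate dehydrogenase, which rose from 12.25 ± 0.02 to 12.44 ± 0.04 or 1.14-fold (limma adjusted p = 0.115). Mdh1, the cytosolic malate dehydrogenase of another NADH shuttle, had a difference of -0.16 (limma adjusted p = 0.400), which was called without short day replicate 4 (-0.19). The pyruvate carboxylase PCB and the mitochondrial pyruvate carrier Mpc1 were not called, at -0.11 and -0.21. Of 18 alternatives in the processing, 1 called PCB lower in short days. Its difference reached -0.33 among these alternatives, against -0.13 to -0.07 with single samples left out. The median of the list was -0.03, beside 0.09 for the 9 glycolytic enzymes.

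In the pentose phosphate pathway, which branches off at glucose-6-phosphate, none of 6 measured genes was called, and the mean was lower in short days for all 6, of which 5 had a mean of 4 or more. The values were -0.32 for CG17333, the lactonase, -0.14 for CG8036, a transketolase, -0.13 for Rpe and -0.06 for Taldo, the transaldolase. The smallest limma adjusted p of the 6 was 0.713.

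Of the enzymes of glucose synthesis 1 of 4 was called, and it fell. Pepck1, phosphoenolpyruvate carboxykinase, fell from 13.62 ± 0.14 to 12.67 ± 0.33, a ratio of 0.517 (limma adjusted p = 0.202), without overlap between the groups. The adjusted p depended on the probe sets tested, at 0.0353 and 0.0238 when those of mean under 4 or under 6 were left out. Pepck2 was at 8.93 ± 0.79 and 7.65 ± 0.35 (difference -1.29, limma adjusted p = 0.431) and fbp, fructose-1,6-bisphosphatase, at 11.28 ± 0.17 and 10.87 ± 0.30 (difference -0.41, limma adjusted p = 0.555), and neither was called although the groups did not overlap. With either of these filters Pepck2 was called (limma adjusted p = 0.119 and 0.0943), whereas fbp was not. The fourth gene, G6P, was not called (0.08).

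Pfk and fbp catalyse opposite directions of the same step, and their contrast was taken in each sample after their values had been seen. Pfk minus fbp was 0.44, -0.05, 0.31 and 0.19 in long days and 0.72, 1.34, 0.46 and 0.78 in short days. The groups did not overlap, and the contrast was 0.61 higher in short days on the log2 scale, which is given with no test because fbp alone already separated the groups. Of this -0.41 was the difference of fbp and 0.20 that of Pfk, neither of which was called alone. In the fat body list the mean was lower in short days for 8 of 9 genes, of which 6 were called. The bright gene apolpp was nearly level (-0.06), and Fbp1 was higher through short day replicate 3 alone. The part of tissue composition in the contrast of Pfk with fbp, and in the falls of Pepck1 and Hex-C, was not tested.

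**Figure D5:**
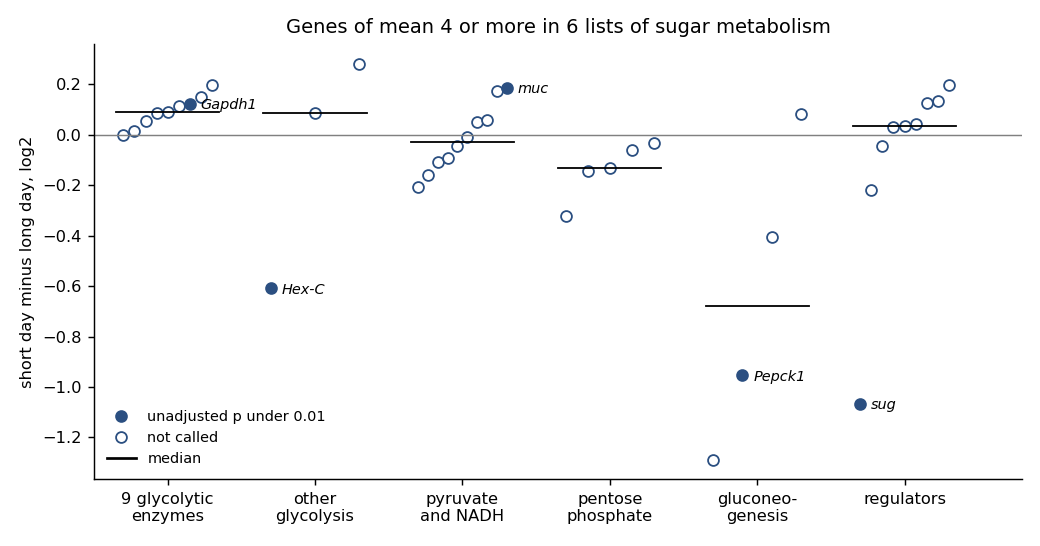
Short day minus long day difference on the log2 scale for every gene of mean 4 or more in 6 lists of sugar metabolism. Filled circles are genes called at the study's threshold, open circles the others, and bars the list medians. The 9 glycolytic enzymes lie between 0.00 and 0.20, and the called genes Hex-C, Pepck1 and sug lie well below 0.

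Of 9 measured regulators of glycolysis 1 fell and none rose. This was sug (sugarbabe), a transcription factor that responds to dietary sugar, which fell from 8.16 ± 0.45 to 7.09 ± 0.19, a ratio of 0.478 (limma adjusted p = 0.281, and 0.0496 and 0.0334 with the filters at a mean of 4 and 6). Its call was lost without long day replicate 4 or short day replicate 2, 3 or 4 (differences between -1.06 and -0.98). ERR, the nuclear receptor that drives glycolytic genes in fly larvae, was not called although its groups did not overlap (6.50 ± 0.06 and 6.64 ± 0.10, difference 0.13, limma adjusted p = 0.555). Pfrx, which makes the activator of phosphofructokinase, was also not called (0.13). For bigmax, a partner of the sugar sensor Mondo, the difference was -0.22 (limma adjusted p = 0.407), and it was called without short day replicate 3 (-0.27).

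The genes whose course over the 8 samples was most like the average of the 9 were sought among 6233 genes of mean 6 or more that varied at least as much. They were CG11050, Abp1, an actin-binding protein, DCTN1-p150, a subunit of dynactin, and Snp. Their centred values differed from the average of the 9 by a mean of 0.02, 0.02, 0.02 and 0.03 on the log2 scale per sample. Since the average itself spanned only 0.16, this likeness is a weak description.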

How the data were processed

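Heads of females were profiled on 8 arrays, 4 per photoperiod. From Trizol RNA, hybridised as biotin-labelled cRNA, the authors made and deposited a log2 value for each probe set with GCRMA, which corrects background by probe sequence, quantile-normalizes the arrays and summarises each probe set. The sources used here name no GCRMA version. Quantile normalization hides a change in total mRNA and can compress very bright probe sets. No batch was tested, as scan dates are not used here, and the number of arrays limits the precision.

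Leaving out 183 controls, 18769 probe sets entered the limma fit (version 3.58.1, R 4.3.3, two-sided lmFit with eBayes) of short day minus long day. Genes were called at an unadjusted p under 0.01, the study's threshold, and Benjamini-Hochberg adjusted p-values cover all probe sets. Single contrasts used exact permutation of the samples, two-sided by absolute difference. Gene names came from the platform annotation, joined by Entrez number to RefSeq. No coordinates are given, since the table names no build.

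The named genes were all 9 members, genes called in the lists, up to 4 genes of smallest p per metabolic list, and 4 genes of like course. The members and lists were chosen with earlier results of these data known. The fit was tested on simulated data. The alternatives tried were low-value filters (means of 4 and 6), blocking on replicate number, a second quantile normalization, median centring, trend and robust variances, array weights, no moderation, a floor of 3, averaged probe sets and each sample left out.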

Additional observations from a re-analysis of the deposited data

Results flagged for a closer look

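A single sample stood far from the other 3 of its photoperiod in 9 of 84 groups examined by Dixon's gap-to-range ratio, which chance alone does in about 1 of 20 groups. In short day replicate 3 the representative Gpdh1 probe set was at 13.93 against 13.81 to 13.83 in the other short day samples. In the same sample the control AFFX-r2-Dros-GAPDH-3_at was at 11.91 against 11.54 to 11.57, and AFFX-Dros-GAPDH_3_at was low, at 13.47 against 13.62 to 13.64. That sample also held fln at 11.71, against 2.58 to 2.60 in the other short day samples. The Gpdh1 set 1634893_at was lowest in short day replicate 4, at 13.04 against 13.13 to 13.14. Smaller departures were seen for Pglym78 in long day replicate 4 (7.07 against 7.08) and fln in long day replicate 2 (2.69 against 2.60). CG8036 was at 12.20 in short day replicate 2, against 12.49 to 12.52, and Pepck1 at 13.83 in long day replicate 3, against 13.54 to 13.57.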

How the results depend on the processing

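The median difference of the 9 glycolytic enzymes was above 0 in all 18 alternatives, between 0.07 and 0.14, and ranged from 0.073 to 0.14 with single samples left out, the highest being without short day replicate 3. The count of called genes among the 9, 1 in the fit reported, was 0 with the replicate block, with either filter, with trend and robust variances and with array weights, and between 0 and 2 with single samples left out (0 without long day 2, short day 2 or short day 4, and 2 without short day 3). The number whose groups did not overlap ranged from 1 to 4 with single samples left out, reaching 2 without long day 1, 3 without long day 3 and 4 without short day 3. Over all probe sets 518 were called, against 640 and 616 with the filters at a mean of 4 and 6, 691 with array weights, 716 with median centring, 300 with the replicate block, 180 with trend and robust variances and between 345 and 568 with single samples left out, 345 being the count without long day replicate 3. After adjustment 1 passed 0.05, against 95 and 141 with the filters and 19 with median centring; Pepck1 and sug were among those that passed with either filter, and none of the 13 probe sets of the 9 genes was. The call of Gapdh1 was lost in 9 of 18 alternatives, that of the Gpdh1 set 1636311_at in 7 of 17 and that of 1634893_at in 1 of 17. The cause was not tested.

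The deviations of same-numbered samples correlated weakly, at 0.01, -0.23, -0.14 and 0.17, so no pairing by replicate number was seen. Such correlations cannot tell whether same-numbered samples were handled together. Of the GAPDH controls 1 passed an unadjusted exact 0.05, as after median centring, and between 0 and 2 did with single samples left out (0 without long day 1, 3 or 4, and 2 without short day 3). The groups of AFFX-Dros-GAPDH_5_at did not overlap whichever sample was left out. With trend and robust variances 78 of the 180 calls were higher in short days, against 286 of 518 in the fit reported, and with median centring 347 were higher and 369 lower.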
